A study of Homo sapiens with 12 samples.

Results

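The subject here is the difference between 2 cell lines in their response to an siRNA against PRMT1 (siPRMT1). The lines were wild type K562 cells and K562 cells expressing AE9a, each nucleofected with 3 µg of control siRNA or of siPRMT1 and harvested after 24 hours. Each of the 4 groups had 3 Illumina arrays, and all 12 arrays of the series entered. K562 is a human erythroleukemia line, and no group lacked the nucleofection or the K562 background. The labels do not say whether the AE9a cells are 1 clone or how much AE9a they make. They do not say either that replicates came from different cultures, and p-values then reflect array-to-array spread that may be technical. For every gene with 1 annotated symbol, the effect of siPRMT1 in wild type cells (siPRMT1 minus control, log2) was subtracted from that in AE9a cells. A negative difference therefore marks a more negative effect in AE9a cells. Of 20046 gene symbols on the array, 13929 had a probe bright enough to be tested, and each gene is represented by its brightest probe.

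PRMT1 is the main enzyme that places asymmetric dimethyl marks on arginine, on histone H4 and on many other proteins. AE9a arises by alternative splicing of AML1-ETO (RUNX1-RUNX1T1), the fusion protein of a common acute myeloid leukemia, which can both repress and activate RUNX1 target genes. The series title asks whether PRMT1 acts with AML1-ETO in transcriptional activation, and the comparison of effects between the lines asks which genes respond to siPRMT1 differently when AE9a is present. Many of the genes described below belong to the integrated stress response, in which phosphorylated eIF2α raises translation of the transcription factor ATF4, and ATF4 with C/EBP partners induces genes for amino acid synthesis, amino acid import, tRNA charging and feedback control.

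The effect on the targeted gene was not shown to differ between the lines. PRMT1 read 1166, 1339 and 1832 under control siRNA and 1269.7, 1004 and 902 under siPRMT1 in wild type cells, and 794, 817 and 695 against 461, 468 and 526 in AE9a cells (raw intensity). The wild type groups overlapped, with the array labelled siPRMT1 replicate 1 above control replicate 1, and the AE9a groups did not. The effect was -0.46 ± 0.16 in wild type cells (log2 ± SE, adjusted p = 0.487) and -0.61 ± 0.16 in AE9a cells (adjusted p = 0.021). A lower PRMT1 level was thus called in AE9a cells only, and the wild type arrays are siPRMT1 arrays by their labels. The part of this in the differences below was not tested. Its difference between the lines was -0.14 ± 0.23 (95% interval -0.63 to 0.34, adjusted p = 0.852). RUNX1, whose 5′ part is in the fusion, differed by 0.12 ± 0.19 (adjusted p = 0.847), a value whose sign turned without AE9a siPRMT1 3 (-0.0177) and without both wild type arrays numbered 3 (-0.00685). The RUNX1T1 probe read 69.9 to 75.5 under control siRNA and 65.4 to 68.1 under siPRMT1 in wild type cells, and 60.9 to 64.9 against 65.1 to 69.5 in AE9a cells, not above background in at least 1 group, and its position relative to the AE9a coding part was not checked, so it does not test the AE9a label.

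Median raw intensity ran from 60.5 to 74.3 over the arrays. Olfactory receptor genes are silent in most cells, and the 95th percentile of their 437 probes, 66.7 to 79.5 over the arrays, served as the background level (here the olfactory receptor level). All 9 erythroid and K562 markers on the array, among them GATA1, TAL1, KLF1, HBG1 and TFRC, lay above this level on every array. Of 31 markers of other cell types on the array, 13 were above it on no array (among them CD3E, PAX5, MPO, DCN and CDH1), 10 on some arrays, and 8 on all 12. Those 8 were CD3D, CD2, CD79B, CD14, CSF2RA, FCGR3B, EPCAM and KRT18, with EPCAM between 3100 and 6373 and CSF2RA between 1669 and 7739 raw. No tested marker of any of these lists was called for the difference between the lines. The lines separated on the first principal component, with 61.3% of the variance. On the second (15.8%), wild type control 3 scored -15.8, apart from controls 1 and 2 (21.9 and 21.7) and beside the wild type siPRMT1 arrays (-18.0 to -0.454), so results are also given without it where a call is lost or a count moves by more than 1.5 times. In wild type cells, control and siPRMT1 arrays with the same replicate number deviated together. No label pairs them, so replicate number as a block in those arrays is an alternative chosen from the data. More genes passed with it, as given beside the lists and genes whose count moves by more than 1.5 times or whose call changes.

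Of 28338 probes, 260 responded to siPRMT1 differently in the lines at an adjusted p under 0.05 (limma), which is 0.917% of those tested. Of these, 85 had a more positive effect in AE9a cells (0.300%) and 175 a more negative one (0.618%). By the brightest probe, 54 genes were more positive (0.388% of genes) and 106 more negative (0.761%). The median difference over all tested genes was 0.00244, a value that quantile normalization holds near 0, and 6893 of the 13929 genes lay below 0. In 42 of the more negative and 13 of the more positive genes the difference reached 1 log2 unit, a 2-fold difference in the ratio. Scaling the arrays to a common median instead of quantile normalization gave 38 more positive and 282 more negative probes, with a median over all tested probes of -0.0358. An unadjusted p under 0.05 was reached by 3692 probes.

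The number of calls depended on single arrays. The 4 groups share 1 estimate of the spread, and each array left out also lowers the degrees of freedom. The median SD within a group was 0.079 in AE9a controls and 0.0952 under siPRMT1, against 0.132 and 0.112 in wild type cells. A lost call is therefore not by itself a changed difference. GDF15, which lost calls, ran from -1.39 to -1.11 over these refits. Other genes that lost calls moved more, MT2A from -2.79 to -1.92 and TRIB3 from -2.26 to -1.53. The part of the spread, of the degrees of freedom and of such shifts in the counts was not tested. The number of probes called was 80 with AE9a control 3 left out, 90 with AE9a siPRMT1 3 left out and 94 with wild type siPRMT1 2 left out. It was 98 without AE9a control 2, 111 without AE9a control 1, 143 without AE9a siPRMT1 1 or 2, and 301 without wild type control 3. With replicate number as a block in the wild type arrays, 1241 probes passed, and all 260 were among them. Of the 160 called genes, 40 passed without each array in turn (32 more negative and 8 more positive), and for 87 the call was lost with more than 6 of the 12 arrays, each left out singly. The plot of calls by setting shows both kinds of refit, and the text below says which genes were of each kind.

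**Figure D1:**
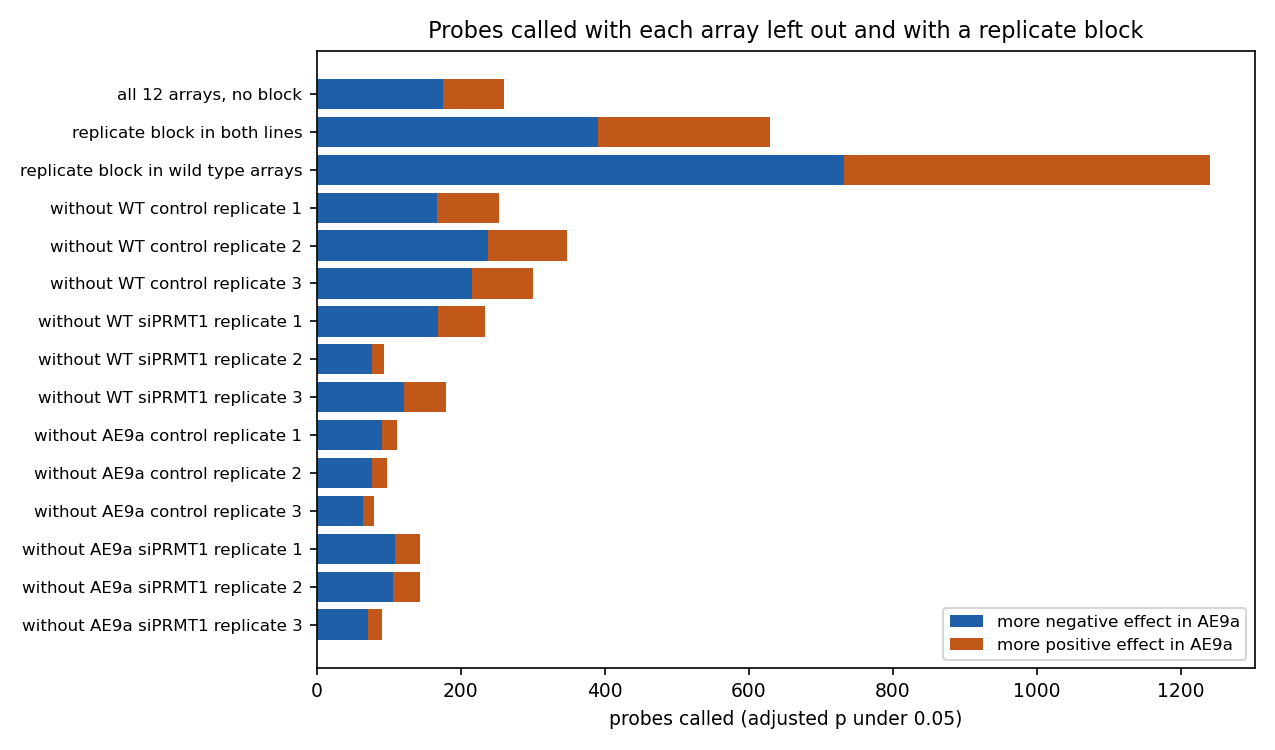
Number of probes with an adjusted p under 0.05 for the difference between lines, with all 12 arrays, with replicate number as a block, and with each array left out, split by direction. Leaving out 1 array gave 80 to 348 probes, and more negative effects outnumbered more positive ones in each bar.

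In most called genes the effect in AE9a cells was the larger one. In 103 of the 106 more negative genes and 45 of the 54 more positive genes the effect in AE9a cells was at least 2 times as large as that in wild type cells, a pattern that 43.4% of all tested genes had. Over the called genes the median size of the effect was 0.88 in AE9a cells and 0.105 in wild type cells (log2). A larger wild type effect was seen in 1 gene of each direction, and opposite effects of similar size in 2 more negative and 8 more positive genes. Of the 160 called genes, 157 were also called for the effect within AE9a cells. Of all 13929 tested genes, 1325 fell and 1111 rose in AE9a cells at the same threshold. For the effect within wild type cells 0 of the 160 were called. The number called in wild type cells over all tested genes is not given, so this 0 has no background beside it. The wild type side of these patterns is thus given as values and was not called in any of the 160 genes. The scatter of effects shows this as a vertical spread around a wild type effect near 0, apart from a group of histone genes to the left.

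**Figure D2:**
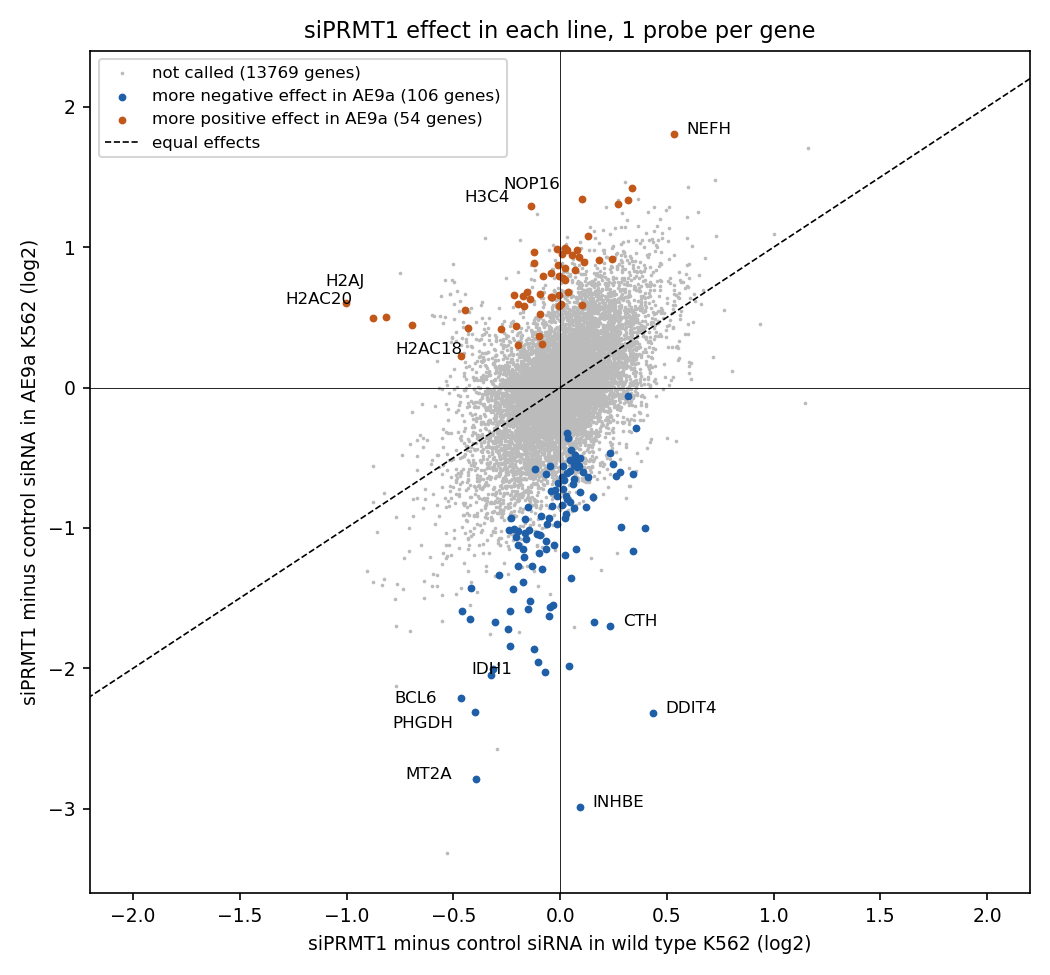
Effect of siPRMT1 (siPRMT1 minus control siRNA, log2, mean of 3 arrays minus mean of 3 arrays) in wild type K562 on the x axis and in AE9a K562 on the y axis, 1 point per gene. The 106 genes with a more negative and the 54 with a more positive effect in AE9a cells are coloured, and the dashed line marks equal effects.

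The called genes were chosen by a contrast of these same arrays. The counts here therefore describe where the difference lies and are no further test, and the shares of tested genes are no null for them. In 77 of the 106 more negative genes, all 3 AE9a controls lay above the other 9 arrays, against 8.78% of tested genes. In 50, all AE9a siPRMT1 arrays lay below the rest, against 7.8%. In the more positive genes, AE9a siPRMT1 arrays lay above all others in 38 of 54 (background 6.91%) and AE9a controls below all others in 20 (7.8%). The lines already differed under control siRNA for some of them: in 36 more negative and 11 more positive genes AE9a controls exceeded wild type controls by more than 1 log2 unit, which held for 3.68% of tested genes. AE9a controls were lower by more than 1 log2 unit in 0 and 5, against 2.78%. In 70 and 38 the control means lay within 1 unit, against 93.5%. In 24 more negative and 12 more positive genes all wild type controls were below the olfactory receptor level, where a fall has no room to show, against 14.8% of tested genes. The heat map of called genes shows the AE9a control arrays high in the upper block and the AE9a siPRMT1 arrays high in the lower one.

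**Figure D3:**
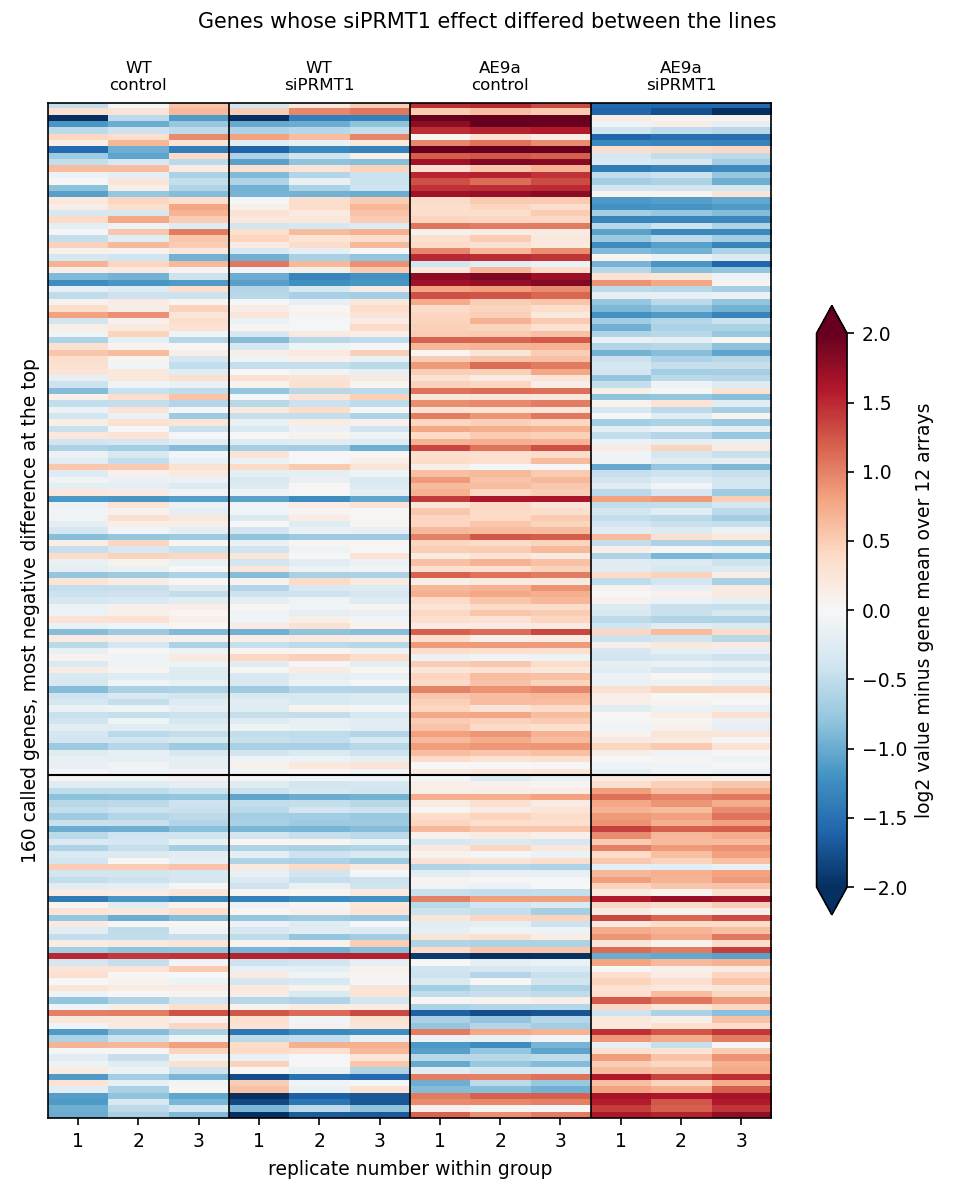
Log2 value of each of the 160 called genes on each of the 12 arrays, minus the gene's mean over the arrays, ordered from the most negative difference between lines at the top to the most positive at the bottom. The horizontal line separates 106 more negative from 54 more positive genes. Columns are replicates 1 to 3 of each group.

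Genes of the integrated stress response had more negative effects in AE9a cells. Of 18 measured members, 8 passed in this direction and 0 in the other (background 0.761% and 0.388%), and 18 of 18 lay below 0. The median difference was -1.03, from a median effect of -0.92 in AE9a cells and 0.00042 in wild type cells, against 0.00244 over all tested genes. DDIT4, an inhibitor of mTORC1 signalling, read 11701, 10462 and 13381 under control siRNA and 12577, 16558 and 18418 under siPRMT1 in wild type cells, and 12827, 13381 and 12782 against 3131, 2675 and 2190.1 in AE9a cells. The controls of the lines overlapped, the AE9a siPRMT1 arrays lay far below every other array, and the wild type siPRMT1 arrays ran from within the range of their controls to above it. Its difference was -2.75 ± 0.21 (adjusted p = 4.31e-05), from -2.32 ± 0.15 in AE9a and 0.43 ± 0.15 in wild type cells. INHBE, a subunit of activin E that ATF4 induces, had the most negative difference of all tested genes, -3.08 ± 0.33 (adjusted p = 0.000534). It read 428, 591 and 904 under control siRNA and 507, 669 and 876 under siPRMT1 in wild type cells, and 1692, 1728 and 1469.9 against 194, 190.1 and 181 in AE9a cells. The AE9a controls were highest and the AE9a siPRMT1 arrays lowest of the 12. CEBPG, a C/EBP dimer partner of ATF4, read 1574 to 2033 under control siRNA and 1443 to 2024 under siPRMT1 in wild type cells, and 1809 to 2019.6 against 722 to 836 in AE9a cells, so that only the AE9a siPRMT1 arrays stood apart, and it differed by -1.14 ± 0.17 (adjusted p = 0.00711).

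GDF15, a secreted stress cytokine, stood higher in AE9a controls (8729.5 to 9937) than on any other array and fell to 2461 to 3575, with wild type arrays between 1043 and 2045. Its difference was -1.23 ± 0.21 (adjusted p = 0.0169). TRIB3, a pseudokinase that ATF4 and DDIT3 induce, differed by -1.83 ± 0.40 (adjusted p = 0.0478). Wild type control 3 read 3841 for TRIB3 against 1758 and 1356 in the other wild type controls. The transcription factors ATF3 (-1.50 ± 0.30, adjusted p = 0.0359) and DDIT3, also called CHOP (-1.21 ± 0.26, adjusted p = 0.0478) passed too. So did CHAC1, which degrades glutathione (adjusted p = 0.0278), with no size given because the AE9a siPRMT1 arrays were below the olfactory receptor level. ATF4 itself was at -0.75 ± 0.17 (adjusted p = 0.0527) and did not pass, nor did ATF5 at -1.42 ± 0.37 (adjusted p = 0.0903) or SESN2, which inhibits mTORC1, at -0.92 ± 0.28 (adjusted p = 0.167).

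Calls of DDIT4, INHBE and CEBPG held without each of the 12 arrays. GDF15 lost its call without any single AE9a control or AE9a siPRMT1 3 (adjusted p up to 0.0658). TRIB3 lost its call without any single AE9a array, wild type control 1 or 2, or wild type siPRMT1 2 or 3 (adjusted p up to 0.132). The TRIB3 call was also lost with no background correction, a smaller background offset or no intensity trend. ATF3 lost its call without any single AE9a array, wild type control 1 or 2, or any single wild type siPRMT1 array (adjusted p up to 0.112). DDIT3 lost its call without any single AE9a array, wild type control 1 or 2, or wild type siPRMT1 2 or 3 (adjusted p up to 0.136). CHAC1 lost its call without any single AE9a array, or wild type siPRMT1 1 or 2 (adjusted p up to 0.0926). The count of called members was 3 with any single AE9a control or AE9a siPRMT1 3 left out, 4 with AE9a siPRMT1 1 or 2, or wild type siPRMT1 2 left out and 5 with wild type control 1 or 2, or wild type siPRMT1 3 left out. It was 12 without wild type control 3 and 13 with the block in wild type arrays.

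ATF4 with a C/EBP partner binds the C/EBP-ATF response element, searched here as TGATGNAA on both strands of RefSeq promoters (GRCh38.p14, 250 bases before to 50 after the start). It occurred in 4.46% of 27305 genes with a promoter in the table. Of the 19 called genes of the stress response, amino acid and tRNA synthetase lists, 16 had a promoter there, and 6 of these (37.5%) held a match. Of the 51 uncalled members 42 had one, and 12 (28.6%) held a match. A gene counts if any of its promoters holds a match. Counted per promoter, 6 of 26 (23.1%) of the called genes and 14 of 65 (21.5%) of the uncalled members held one, against 3.62% of all promoters. A match describes the letters and is no proof of a binding site. The stretches around the 6 matches follow, upstream of the start, 5′ to 3′ on the gene's strand with the match in capitals and its distance from the start in bases.
ASNS (chr7:97872429-97872516, minus strand, match at -68): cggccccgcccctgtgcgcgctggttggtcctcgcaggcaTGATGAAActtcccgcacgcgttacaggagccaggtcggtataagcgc
CEBPG (chr19:33374031-33374112, plus strand, match at -42): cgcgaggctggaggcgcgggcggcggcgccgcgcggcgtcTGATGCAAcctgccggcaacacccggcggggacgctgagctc
CHAC1 (chr15:40953222-40953309, plus strand, match at -209): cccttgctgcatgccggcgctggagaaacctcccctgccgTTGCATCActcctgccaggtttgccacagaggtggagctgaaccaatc
ATF3 (chr1:212565176-212565263, plus strand, match at -191): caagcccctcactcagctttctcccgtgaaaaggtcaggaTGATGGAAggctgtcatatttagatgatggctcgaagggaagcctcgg
AARS1 (chr16:70289646-70289733, minus strand, match at -187): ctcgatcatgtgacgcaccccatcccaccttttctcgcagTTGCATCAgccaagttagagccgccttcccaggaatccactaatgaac
GARS1 (chr7:30594805-30594877, plus strand, match at -33): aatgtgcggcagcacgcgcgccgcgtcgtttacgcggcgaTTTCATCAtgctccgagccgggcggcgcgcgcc

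Enzymes that make serine and feed the folate pathway followed the same direction. Of 10 measured members, 5 passed as more negative and 0 as more positive (background 0.761% and 0.388%), with a median of -0.66. PHGDH, the first enzyme of serine synthesis, read 10343, 14045 and 10451 under control siRNA and 8163, 8106 and 10665 under siPRMT1 in wild type cells, and 18275, 19720 and 17949 against 3963, 3724 and 3471 in AE9a cells. AE9a controls were the highest of the 12 arrays and AE9a siPRMT1 arrays the lowest, with no overlap. The difference was -1.91 ± 0.20 (adjusted p = 0.000343), and the wild type effect was -0.40 ± 0.14 (adjusted p = 0.495). PSAT1, the second enzyme, read 2785 to 4291 under control siRNA and 2952 to 4224 under siPRMT1 in wild type cells, and 3139 to 3397 against 1108 to 1121 in AE9a cells, and differed by -1.51 ± 0.23 (adjusted p = 0.00711). Controls of the lines overlapped, and only the AE9a siPRMT1 arrays were low. PSPH, the last step of the pathway, differed by -1.28 ± 0.23 (adjusted p = 0.0212) by its brightest probe, while a dimmer PSPH probe was at -0.71 (adjusted p = 0.219).

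The mitochondrial folate enzymes MTHFD2 (-1.09 ± 0.18, adjusted p = 0.0147) and SHMT2 (-0.71 ± 0.14, adjusted p = 0.0349) were more negative as well. MTHFD2 read 3681 to 4120.1 under control siRNA and 3212 to 4667 under siPRMT1 in wild type cells, and 4057 to 4777 against 1777 to 2174 in AE9a cells. Their cytosolic counterparts MTHFD1 (0.30 ± 0.19, adjusted p = 0.544) and SHMT1 (0.23 ± 0.14, adjusted p = 0.516) did not pass, nor did TYMS, which makes thymidylate (-0.05 ± 0.26, adjusted p = 0.962). No test compared the compartments. PHGDH and PSAT1 kept their calls without each array. PSPH lost its call without AE9a control 2 or 3, or AE9a siPRMT1 3 (adjusted p up to 0.0817). MTHFD2 lost its call without AE9a control 2 (adjusted p up to 0.0529). SHMT2 lost its call without any single AE9a control, AE9a siPRMT1 2 or 3, wild type control 1, or any single wild type siPRMT1 array (adjusted p up to 0.114). The list's count was 2 with AE9a control 2 left out and 3 with AE9a control 3 or AE9a siPRMT1 3 left out.

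Among enzymes of asparagine, cysteine, proline and glutamate metabolism, 3 of 9 measured members were more negative and 0 more positive (background 0.761% and 0.388%). The median was -0.61, or -0.36 when probes of a gene were averaged. ASNS, asparagine synthetase, read 13047, 15957 and 12764 under control siRNA and 11138, 10751 and 13422 under siPRMT1 in wild type cells, and 12746, 12469 and 12370 against 4054, 3891 and 3688 in AE9a cells. The 3 groups other than AE9a siPRMT1 overlapped. ASNS differed by -1.48 ± 0.16 (adjusted p = 0.000446), and its dimmer probe by -1.59 (adjusted p = 0.000841). CTH, which releases cysteine from cystathionine, read 656, 620.2 and 957 under control siRNA and 942, 729 and 994 under siPRMT1 in wild type cells, and 516, 617 and 539 against 153, 161 and 150.1 in AE9a cells. AE9a siPRMT1 arrays were again the only low ones. Its difference was -1.93 ± 0.22 (adjusted p = 0.000816), and both further CTH probes passed in the same direction.

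CBS, the enzyme that forms cystathionine, had a smaller difference of -0.77 ± 0.15 (adjusted p = 0.0313), with AE9a controls (6461 to 7099.9) above the AE9a siPRMT1 arrays (4200.2 to 4769). The proline enzymes PYCR1 (-0.25 ± 0.21, adjusted p = 0.668) and ALDH18A1 (-0.05 ± 0.22, adjusted p = 0.953) and glutamine synthetase GLUL (0.10 ± 0.41, adjusted p = 0.953) did not pass. The calls of ASNS and CTH were kept without each array. CBS lost its call without any single AE9a array (adjusted p up to 0.109). With the wild type block, 5 of the 9 members passed.

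Of the cytosolic aminoacyl-tRNA synthetases, which charge tRNAs, 3 of 18 were more negative and 0 more positive (background 0.761% and 0.388%), and 14 of 18 lay below 0 (median -0.51). With the block in wild type arrays 9 passed. WARS1, for tryptophan, read 3466 to 3648 under control siRNA and 2878 to 4099 under siPRMT1 in wild type cells, and 4740.1 to 5566 against 1872 to 2324 in AE9a cells, and differed by -1.21 ± 0.17 (adjusted p = 0.00477). AARS1, for alanine, read 12518, 13084 and 12326 under control siRNA and 10102, 11665 and 11649 under siPRMT1 in wild type cells, and 15066, 15275 and 14656 against 7402, 7240.3 and 6181 in AE9a cells. All its AE9a controls lay above, and all AE9a siPRMT1 arrays below, the wild type arrays, and the difference was -0.93 ± 0.14 (adjusted p = 0.0061). GARS1, for glycine, differed by -0.98 ± 0.17 (adjusted p = 0.0187). GARS1 lost its call without AE9a control 1 or 3, AE9a siPRMT1 1 or 3, or wild type siPRMT1 2 (adjusted p up to 0.0654). VARS1, for valine, was at 0.26 ± 0.20 (adjusted p = 0.647) and LARS1, for leucine, at -0.27 ± 0.18 (adjusted p = 0.551).

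None of the 15 plasma membrane amino acid transporters passed by limma, although 12 lay below 0 (median -0.45). The count was 5 more negative without wild type control 3 and 3 with the wild type block. The smallest p belonged to SLC6A9, a glycine transporter, at -0.88 ± 0.23 (adjusted p = 0.0949, or 0.0134 with the block), and to SLC3A2, the heavy chain shared by several transporters, at -0.67 ± 0.20 (adjusted p = 0.141, or 0.0205 with the block). A dimmer SLC6A9 probe (adjusted p = 0.593) was below the olfactory receptor level on every array, so no size is given. ER chaperones and genes of the unfolded protein response, another arm of the stress response, were not shifted as a list: 0 of 16 passed in either direction, 7 lay below 0, and the median was 0.03. With the wild type block 2 passed as more negative. XBP1, a transcription factor of this response, was at -0.86 ± 0.22 (adjusted p = 0.0898, or 0.0213 with the block), HSPA5, the main ER chaperone, at -0.49 ± 0.25 (adjusted p = 0.436) and HSP90B1 at -0.05 ± 0.25 (adjusted p = 0.96).

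**Figure D4:**
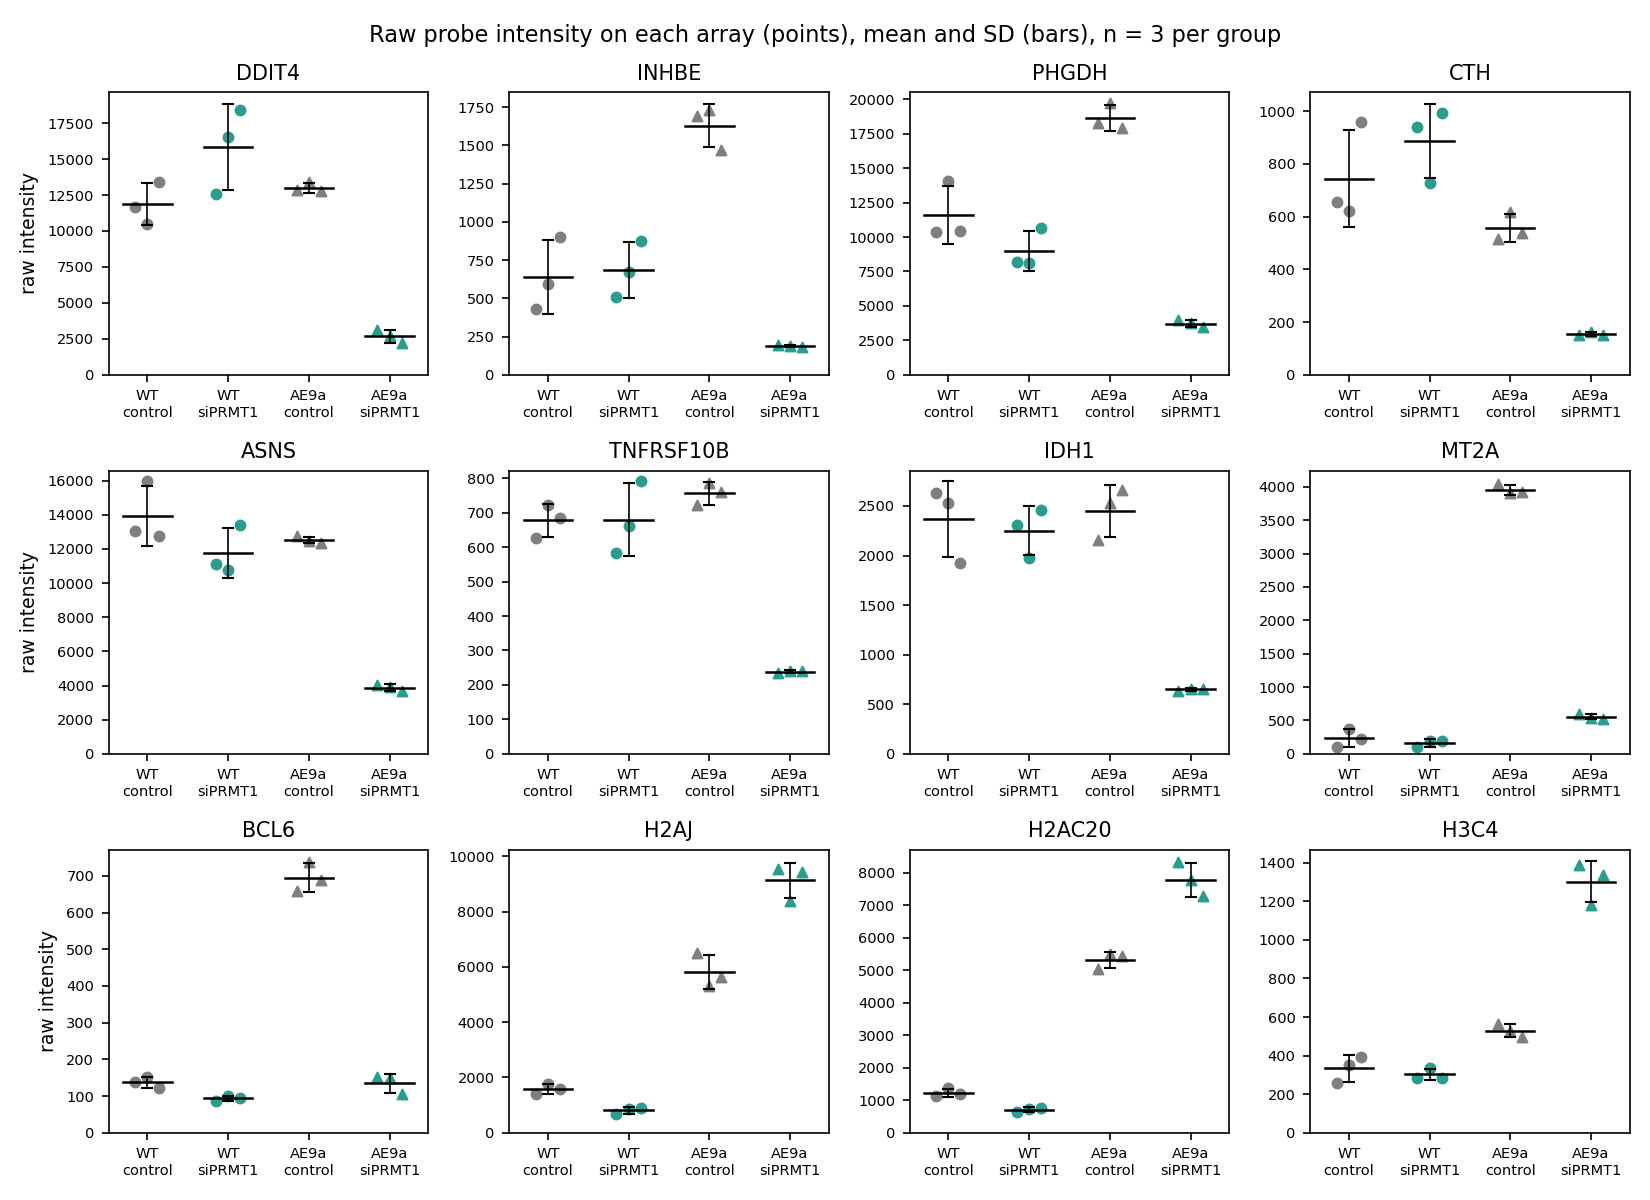
Raw intensity of 12 genes on each of the 12 arrays (points), with the group mean and SD (n = 3) as bars, y axes from 0. DDIT4, ASNS, TNFRSF10B and IDH1 had overlapping controls in the lines and low AE9a siPRMT1 arrays. MT2A and BCL6 were high on AE9a control arrays only, and H2AJ and H2AC20 were lower on siPRMT1 arrays in wild type but higher in AE9a cells.

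Metallothioneins, small proteins that bind zinc and copper and are induced by metals, lie together on chromosome 16. Of 8 measured members of the list, which holds MT1 genes, MT2A, SLC30A1 and MTF1, 5 were more negative in AE9a cells and 0 more positive (background 0.761% and 0.388%). The median was -1.71, or -0.978 over members whose probe exceeded background on each of the 12 arrays. MT2A read 107, 372 and 229 under control siRNA and 95.6, 192 and 194 under siPRMT1 in wild type cells, and 4041, 3914 and 3917 against 599, 537 and 528 in AE9a cells. The AE9a controls were far above all other arrays, the AE9a siPRMT1 arrays were next, and wild type values were low and varied between replicates. The difference was -2.40 ± 0.48 (adjusted p = 0.0349). MT1E read 81.7, 86.1 and 98.9 under control siRNA and 85.9, 84.0 and 93.7 under siPRMT1 in wild type cells, and 677, 810.1 and 726 against 169, 194 and 149 in AE9a cells. In wild type cells it stayed just above the olfactory receptor level under both siRNAs, so a fall there had little room to appear. Its difference was -2.03 ± 0.18 (adjusted p = 0.000129). MT1F read 63.8 to 83.2 under control siRNA and 62.2 to 73.9 under siPRMT1 in wild type cells, and 260.1 to 271 against 112 to 134 in AE9a cells, again highest in AE9a controls, and differed by -0.96 ± 0.18 (adjusted p = 0.0219).

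MT1G read 60.2 to 89.5 under control siRNA and 53.6 to 67.9 under siPRMT1 in wild type cells, and 979 to 1009 against 234 to 242 in AE9a cells, and MT1H 44.3 to 55.8 under control siRNA and 43.8 to 48.0 under siPRMT1 in wild type cells, and 373 to 383 against 105 to 114 in AE9a cells. At least 1 wild type group of each was below the olfactory receptor level, so no size is given for the difference, which passed for MT1G (adjusted p = 0.000446) and MT1H (adjusted p = 6.89e-05). MT1X, at -2.28 ± 0.87 (adjusted p = 0.269), did not pass, nor did the zinc exporter SLC30A1 (0.07 ± 0.32, adjusted p = 0.957) or MTF1, the factor that senses zinc (0.28 ± 0.21, adjusted p = 0.632). MT4, a metallothionein that is not in the list and was noticed after its values were seen, passed in the opposite direction, as more positive (adjusted p = 0.00906), and kept its call without each array. All wild type arrays were below the olfactory receptor level for MT4, so no size is given. Metallothionein transcripts are alike in sequence, and their probes may share signal. MT1E, MT1G and MT1H kept their calls without each array. MT2A lost its call without any single AE9a array, or wild type siPRMT1 2 or 3 (adjusted p up to 0.106). The MT2A call was also lost with no background correction, a smaller background offset, the submitters' processed values, or both wild type arrays numbered 3 left out. MT1F lost its call without any single AE9a control, AE9a siPRMT1 1 or 2, or wild type siPRMT1 2 or 3 (adjusted p up to 0.0778), and with a smaller background offset. The list's count was 3 with any single AE9a control, AE9a siPRMT1 1 or 2, or wild type siPRMT1 2 or 3 left out.

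MTF1 binds the metal response element, whose core was searched as TGCACNC or TGCGCNC on both strands. It is short and occurred in 33.4% of all genes in the promoter table. Of the 5 called metallothioneins, 2 had a promoter there (MT2A and MT1H), and each held 8 matches in its 300 bases. Of the 3 uncalled members of the list, 3 had a promoter and 2 (66.7%) held a match. The number of matches per promoter over all genes is not given, so the 8 has no background beside it. The part of the MT2A promoter before the start is shown as the example, on GRCh38.p14 with the matches in capitals.
MT2A (chr16:56608334-56608583, plus strand): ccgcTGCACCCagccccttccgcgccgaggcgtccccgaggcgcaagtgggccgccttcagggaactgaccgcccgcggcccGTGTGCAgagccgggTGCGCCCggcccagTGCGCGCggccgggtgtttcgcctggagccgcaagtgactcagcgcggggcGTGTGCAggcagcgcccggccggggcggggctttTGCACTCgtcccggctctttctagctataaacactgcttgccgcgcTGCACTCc

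Several further genes outside these pathways had strong negative differences. BCL6, a transcriptional repressor that STAT5 represses, read 138, 152 and 122 under control siRNA and 85.5, 101 and 94.4 under siPRMT1 in wild type cells, and 659, 738 and 688 against 151, 148 and 106 in AE9a cells. Only the AE9a controls were high, and under siPRMT1 the AE9a arrays reached the level of the wild type controls. The difference was -1.75 ± 0.18 (adjusted p = 0.000343). IDH1, the cytosolic isocitrate dehydrogenase, read 2633, 2534 and 1928 under control siRNA and 2307, 1978 and 2464 under siPRMT1 in wild type cells, and 2154, 2525 and 2661 against 634, 657 and 658 in AE9a cells, so that the AE9a siPRMT1 arrays alone were low. Its difference was -1.74 ± 0.20 (adjusted p = 0.000744), and a dimmer probe gave -1.73 (adjusted p = 0.0061). TNFRSF10B, the TRAIL receptor DR5, which DDIT3 can induce, read 627 to 722 under control siRNA and 582 to 793 under siPRMT1 in wild type cells, and 721 to 786 against 234 to 241 in AE9a cells, and differed by -1.52 ± 0.19 (adjusted p = 0.00168). It was the only one of 18 measured genes of the TRAIL and apoptosis list to pass (background 0.761% more negative). Both dimmer TNFRSF10B probes did not pass (adjusted p = 0.0969 and 0.775). Each was below the olfactory receptor level on all AE9a siPRMT1 arrays, so no size is given and they say little about the call.

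ARG2, mitochondrial arginase, read 329.8 to 497 under control siRNA and 306 to 389 under siPRMT1 in wild type cells, and 1418 to 1562 against 288 to 385 in AE9a cells, and differed by -1.73 ± 0.22 (adjusted p = 0.00209). KLHL24, a ubiquitin ligase adaptor, differed by -1.69 ± 0.25 (adjusted p = 0.00643), and TM6SF1, a membrane protein, by -1.61 ± 0.27 (adjusted p = 0.0137). Each of them was highest on the AE9a control arrays. S100P, a calcium-binding protein, read 56.0, 58.3 and 50.8 under control siRNA and 47.7, 49.0 and 52.1 under siPRMT1 in wild type cells, and 256, 262 and 265 against 54.4, 50.3 and 45.7 in AE9a cells. It was above background in AE9a controls alone (adjusted p = 6.19e-07), and so no size is given. ALOX12, the platelet 12-lipoxygenase, read 65.3 to 68.7 under control siRNA and 51.4 to 60.3 under siPRMT1 in wild type cells, and 221 to 256 against 76.3 to 79.0 in AE9a cells (adjusted p = 7.20e-05) and had at least 1 wild type group below background. Calls for BCL6, IDH1, TNFRSF10B, ARG2, KLHL24, TM6SF1, S100P and ALOX12 held without each array in turn. TM6SF1 was lost with a smaller background offset.

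In the list of STAT5 targets and PIM kinases, 2 of 14 passed as more negative (BCL6 and PIM1, background 0.761%) and the median was -0.04. PIM1, a survival kinase, read 9201, 9435 and 5926 under control siRNA and 6367, 5122 and 6266 under siPRMT1 in wild type cells, and 6852, 7006 and 5683 against 2224, 2307 and 1931 in AE9a cells. Wild type control 3 lay below the other wild type controls and among the siPRMT1 arrays. The difference was -1.13 ± 0.21 (adjusted p = 0.0278). PIM1 lost its call without any single AE9a array or any single wild type siPRMT1 array (adjusted p up to 0.0935). With any of these left out singly the list held 1 call, and without wild type control 3 it held 3.

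Glycolysis and hypoxia genes were mostly below 0 without passing: 29 of 31 had a negative difference (median -0.45), but 1 was called, as more negative (background 0.761%). That gene was VEGFA, the angiogenic growth factor, which read 449.7 to 564 under control siRNA and 381 to 442 under siPRMT1 in wild type cells, and 716 to 743 against 233 to 298 in AE9a cells, and differed by -1.05 ± 0.18 (adjusted p = 0.0149). A dimmer VEGFA probe did not pass, at -0.62 (adjusted p = 0.0715). VEGFA lost its call without AE9a control 2 or 3, AE9a siPRMT1 3, or wild type siPRMT1 2 (adjusted p up to 0.0562). The list's count was 0 with AE9a control 2 or 3, AE9a siPRMT1 3, or wild type siPRMT1 2 left out and 2 with wild type control 2 or wild type siPRMT1 1 left out, and it was 7 with the wild type block. PGK1, a glycolytic enzyme, was at -0.87 ± 0.24 (adjusted p = 0.107), BNIP3L, a mitophagy receptor, at -1.10 ± 0.41 (adjusted p = 0.262), and GAPDH at -0.44 ± 0.20 (adjusted p = 0.373).

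Of 32 measured erythroid and heme genes 1 passed, as more negative (background 0.761%), and the median was -0.05. UROS, the fourth enzyme of heme synthesis, read 1272 to 1659 under control siRNA and 1471 to 1758 under siPRMT1 in wild type cells, and 1620.2 to 1704 against 833 to 1153 in AE9a cells, and differed by -0.93 ± 0.19 (adjusted p = 0.0376). UROS lost its call without any single AE9a control, AE9a siPRMT1 2 or 3, wild type control 1 or 3, or wild type siPRMT1 1 or 2 (adjusted p up to 0.118). The UROS call was also lost with no filter on dim probes. The block in wild type arrays gave 5 more negative members. The heme enzymes CPOX (-0.99 ± 0.33, adjusted p = 0.198) and PPOX (-0.79 ± 0.30, adjusted p = 0.26) did not pass, nor did the globin HBB (0.35 ± 0.15, adjusted p = 0.324) or the erythroid factor GATA1 (0.29 ± 0.19, adjusted p = 0.561).

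A minority of histone genes were called as more positive in AE9a cells. Of 48 measured, 8 passed as more positive and 0 as more negative (background 0.388% and 0.761%), and 10 lay below 0, with a median difference of 0.32, a median effect of 0.21 in AE9a cells and of -0.12 in wild type cells. With no filter on dim probes the median difference of the histone list was 0.117, and over members whose probe exceeded background on each of the 12 arrays it was 0.568. H2AJ, a replication-independent H2A variant on chromosome 12, had the most positive difference of all tested genes. It read 1403, 1769 and 1572 under control siRNA and 682, 845 and 898 under siPRMT1 in wild type cells, and 6497, 5321 and 5618 against 9553, 8395 and 9449 in AE9a cells. Wild type siPRMT1 arrays were all below their controls and AE9a siPRMT1 arrays all above theirs, and AE9a cells stood higher than wild type cells throughout. The difference was 1.61 ± 0.21 (adjusted p = 0.00209), from 0.60 ± 0.15 in AE9a and -1.003 ± 0.15 in wild type cells (adjusted p = 0.138 for the latter).

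H2AC20, a replication-dependent H2A gene on chromosome 1, read 1121, 1368 and 1184 under control siRNA and 636, 745 and 757 under siPRMT1 in wild type cells, and 5041, 5494 and 5443 against 8323, 7772 and 7278 in AE9a cells, in the same order of groups as H2AJ. Its difference was 1.32 ± 0.18 (adjusted p = 0.00294). H2AC18 (1.14 ± 0.17, adjusted p = 0.00711) and H2AC19 (1.37 ± 0.25, adjusted p = 0.0207), near-identical copies on chromosome 1 whose probes may report the same transcripts, had the same order of groups. A dimmer H2AC18 probe was at 1.30 (adjusted p = 0.0764). H2AC21 (0.99 ± 0.20, adjusted p = 0.0323) was the further H2A gene called. H3C4, an H3 gene on chromosome 6, differed in another way. It read 258, 352 and 390.5 under control siRNA and 286, 337 and 284 under siPRMT1 in wild type cells, and 565, 527 and 496 against 1387, 1183 and 1337 in AE9a cells: the wild type groups overlapped, and the AE9a siPRMT1 arrays were the only high ones. The difference was 1.43 ± 0.22 (adjusted p = 0.0078). H3C6 (0.86 ± 0.17, adjusted p = 0.0372) and the linker histone H1-2 (0.69 ± 0.14, adjusted p = 0.0326) were called too.

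H2AJ, H2AC20, H2AC18 and H3C4 kept their calls without each array. H2AC19 lost its call without any single AE9a control, or AE9a siPRMT1 1 or 3 (adjusted p up to 0.0729). H1-2 lost its call without any single AE9a array, or wild type siPRMT1 2 or 3 (adjusted p up to 0.104), and with both wild type arrays numbered 3 left out. H2AC21 lost its call without AE9a control 2 or 3, any single AE9a siPRMT1 array, or wild type siPRMT1 1 or 2 (adjusted p up to 0.112). H3C6 lost its call without any single AE9a array, or wild type siPRMT1 1 or 2 (adjusted p up to 0.119). The count for the list was 4 with AE9a control 2 or 3, or AE9a siPRMT1 1 or 3 left out and 5 with AE9a control 1, AE9a siPRMT1 2 or wild type siPRMT1 2 left out. With the wild type block it was 14. SLBP, which binds the end of replication-dependent histone messages, was at 0.44 ± 0.19 (adjusted p = 0.332).

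Genes of ribosome biogenesis had a positive difference in all 34 measured members, with a median of 0.55 from median effects of 0.74 in AE9a and 0.17 in wild type cells. Called were 5 as more positive and 0 as more negative, where 0.388% and 0.761% of all tested genes were, and 6893 of 13929 tested genes lay below 0. UTP15, a subunit of the small-subunit processome, read 362, 334 and 328 under control siRNA and 373, 302 and 358 under siPRMT1 in wild type cells, and 190.4, 207 and 186 against 365, 338 and 331 in AE9a cells. AE9a controls were low, and under siPRMT1 they reached the wild type range. The difference was 0.88 ± 0.14 (adjusted p = 0.0117). NOP16, a nucleolar protein induced by MYC, read 905 to 1249 under control siRNA and 939 to 1613 under siPRMT1 in wild type cells, and 535 to 724 against 1394 to 1665 in AE9a cells, and differed by 1.24 ± 0.25 (adjusted p = 0.0349), and its other probe by 1.30 (adjusted p = 0.0117). GRWD1, a nucleolar histone-binding protein, differed by 1.08 ± 0.24 (adjusted p = 0.0484), RRP9, of the U3 particle, by 0.89 ± 0.19 (adjusted p = 0.0482) and UTP20, another processome member, by 0.77 ± 0.16 (adjusted p = 0.0445).

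Of these calls UTP15 was lost with 1 array left out and the others with 9 or more. UTP15 lost its call without AE9a control 3 (adjusted p up to 0.0545). NOP16 lost its call without any single AE9a array, wild type control 1, or wild type siPRMT1 2 or 3 (adjusted p up to 0.108). GRWD1 lost its call without any single AE9a array, wild type control 1 or 3, or wild type siPRMT1 1 or 2 (adjusted p up to 0.141). RRP9 lost its call without any single AE9a array, any single wild type control, or wild type siPRMT1 1 or 2 (adjusted p up to 0.135). UTP20 lost its call without any single AE9a array, wild type control 1 or 3, or wild type siPRMT1 1 or 2 (adjusted p up to 0.125). The list's count was 0 with AE9a control 3 left out, 1 with AE9a control 1 or 2, any single AE9a siPRMT1 array, wild type control 1, or wild type siPRMT1 2 left out and 3 with wild type control 3 or wild type siPRMT1 1 left out. It was 2 with median scaling, 3 without background correction and 15 with the wild type block. NCL (0.33 ± 0.15, adjusted p = 0.378) and FBL (0.10 ± 0.13, adjusted p = 0.812), the main nucleolar proteins, did not pass.

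Heat shock proteins and their partners had a median of 0.54, with 19 of 21 above 0 and 1 called as more positive (background 0.388%). Median scaling, no background correction, a smaller background offset or no filter on dim probes each removed this call. The called gene was HSPA4, a nucleotide exchange factor for HSP70, at 0.83 ± 0.18 (adjusted p = 0.0478). A dimmer HSPA4 probe did not pass, at 0.24 (adjusted p = 0.626). It read 2168 to 2350 under control siRNA and 2007 to 2882 under siPRMT1 in wild type cells, and 1252 to 1297 against 2088 to 2472 in AE9a cells, low in AE9a controls alone. HSPA4 lost its call without any single AE9a array, any single wild type control, or wild type siPRMT1 1 or 2 (adjusted p up to 0.14). The count of the list was 2 without wild type siPRMT1 3 or without both wild type arrays numbered 3, and 8 with the wild type block. HSPA1A, the inducible HSP70, was at 1.42 ± 0.37 (adjusted p = 0.0907), and HSPH1, another exchange factor, at 1.07 ± 0.33 (adjusted p = 0.161).

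Other genes with large positive differences were less stable. NEFH, the heavy neurofilament protein, read 249.7, 180.2 and 283 under control siRNA and 477, 253 and 356 under siPRMT1 in wild type cells, and 162, 158 and 143 against 510.3, 472 and 645 in AE9a cells. AE9a controls were the lowest group and AE9a siPRMT1 arrays were near or above the highest wild type array. Its difference was 1.27 ± 0.28 (adjusted p = 0.0489). The mitochondrial co-chaperone DNLZ differed by 1.04 ± 0.20 (adjusted p = 0.0292), the nucleolar protein CCDC86 by 1.02 ± 0.21 (adjusted p = 0.0416) and the phosphatase DUSP23 by 1.01 ± 0.20 (adjusted p = 0.0349). DUSP23 read 2077 to 2366 under control siRNA and 1881 to 2294 under siPRMT1 in wild type cells, and 569 to 680.4 against 957 to 1269.8 in AE9a cells, below the wild type range in AE9a cells under both siRNAs. RN7SK, the RNA that holds the elongation factor P-TEFb inactive, differed by 1.09 ± 0.24 (adjusted p = 0.0489), and its other probe by 1.51 (adjusted p = 0.0153). NEFH lost its call without any single AE9a array, wild type control 1 or 3, or wild type siPRMT1 2 or 3 (adjusted p up to 0.14). DNLZ lost its call without any single AE9a control, AE9a siPRMT1 1 or 3, or wild type siPRMT1 1 or 2 (adjusted p up to 0.0926). CCDC86 lost its call without any single AE9a array, or wild type siPRMT1 1 or 2 (adjusted p up to 0.128). DUSP23 lost its call without any single AE9a control, AE9a siPRMT1 1 or 3, or wild type siPRMT1 1 or 2 (adjusted p up to 0.114). RN7SK lost its call without any single AE9a array, wild type control 1 or 2, or wild type siPRMT1 2 or 3 (adjusted p up to 0.14).

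TSPOAP1, a synaptic scaffold protein, and ST8SIA1, a ganglioside sialyltransferase, were called in the negative direction without a large effect in AE9a cells. TSPOAP1 read 88.5, 73.5 and 86.2 under control siRNA and 108, 108 and 97.0 under siPRMT1 in wild type cells, and 70.6, 68.9 and 68.0 against 52.4, 54.8 and 49.2 in AE9a cells (adjusted p = 0.00727). Its siPRMT1 arrays lay above the controls in wild type cells and below them in AE9a cells. ST8SIA1 read 66.0, 64.7 and 56.3 under control siRNA and 72.2, 78.4 and 77.8 under siPRMT1 in wild type cells, and 68.1, 62.3 and 64.9 against 60.1, 61.3 and 58.4 in AE9a cells (adjusted p = 0.0476), where only the wild type siPRMT1 arrays stood above the others. Both genes were near background, with at least 1 group below the olfactory receptor level, so no size is given. A further ST8SIA1 probe did not pass. ST8SIA1 lost its call without any single AE9a array, wild type control 1 or 3, or wild type siPRMT1 2 or 3 (adjusted p up to 0.13). The ST8SIA1 call was also lost with no background correction, a smaller background offset, no filter on dim probes or no intensity trend. It was lost too with the block in both lines, or without both wild type arrays numbered 3.

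The remaining lists held no called member by limma without the block in wild type arrays, and the genes whose adjusted p with the block is given passed with it. Cholesterol synthesis had a median of -0.26, with INSIG1, which retains the SREBP complex, at -0.77 ± 0.21 (adjusted p = 0.103, or 0.0397 with the block) and the enzyme MSMO1 at -0.79 ± 0.23 (adjusted p = 0.146). G2/M and mitosis genes had -0.28, with 25 of 30 below 0 and the spindle gene DLGAP5 at -0.65 ± 0.16 (adjusted p = 0.076, or 0.0206 with the block) and the kinetochore motor CENPE at -0.61 ± 0.16 (adjusted p = 0.104, or 0.0342 with the block). G1/S and DNA replication genes had 0.06, with cyclin D1, CCND1, at 0.85 ± 0.30 (adjusted p = 0.234) and the phosphatase CDC25A at 0.58 ± 0.23 (adjusted p = 0.285). A second DLGAP5 probe of similar brightness was at -0.13 (adjusted p = 0.842). The other arginine methyltransferases and their partners had a median of 0.27, which was 0.0495 without wild type control 3 and below 0 (-0.00864) without both wild type arrays numbered 3. Among them BTG1, a cofactor of PRMT1, was at -0.90 ± 0.20 (adjusted p = 0.0557, or 0.00452 with the block) and WDR77, the partner of PRMT5, at 0.61 ± 0.16 (adjusted p = 0.102, or 0.029 with the block).

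AP-1 and immediate early genes had a median of -0.02, with the phosphatase DUSP5 at 0.95 ± 0.22 (adjusted p = 0.0558, or 0.00744 with the block) and FOSL1, a Fos family factor, at 0.46 ± 0.17 (adjusted p = 0.269). NRF2 target genes had -0.23, with the pentose phosphate enzyme PGD at -0.54 ± 0.16 (adjusted p = 0.14) and KEAP1, which degrades NRF2, at 0.49 ± 0.17 (adjusted p = 0.221). Interferon-stimulated genes had 0.03, with IRF9 at -0.53 ± 0.19 (adjusted p = 0.229) and IFI6 at 0.61 ± 0.31 (adjusted p = 0.436, or 0.0388 with the block). RUNX, CBFB and ETO family genes had 0.13, with the ETO family corepressor CBFA2T2 at -0.22 ± 0.15 (adjusted p = 0.579). With the block in wild type arrays 4 G2/M genes passed as more negative, and of the other lists without a call none had more than 3. A dimmer IFI6 probe was at 0.16 (adjusted p = 0.632). The plot of list medians sets them beside the lists above.

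**Figure D5:**
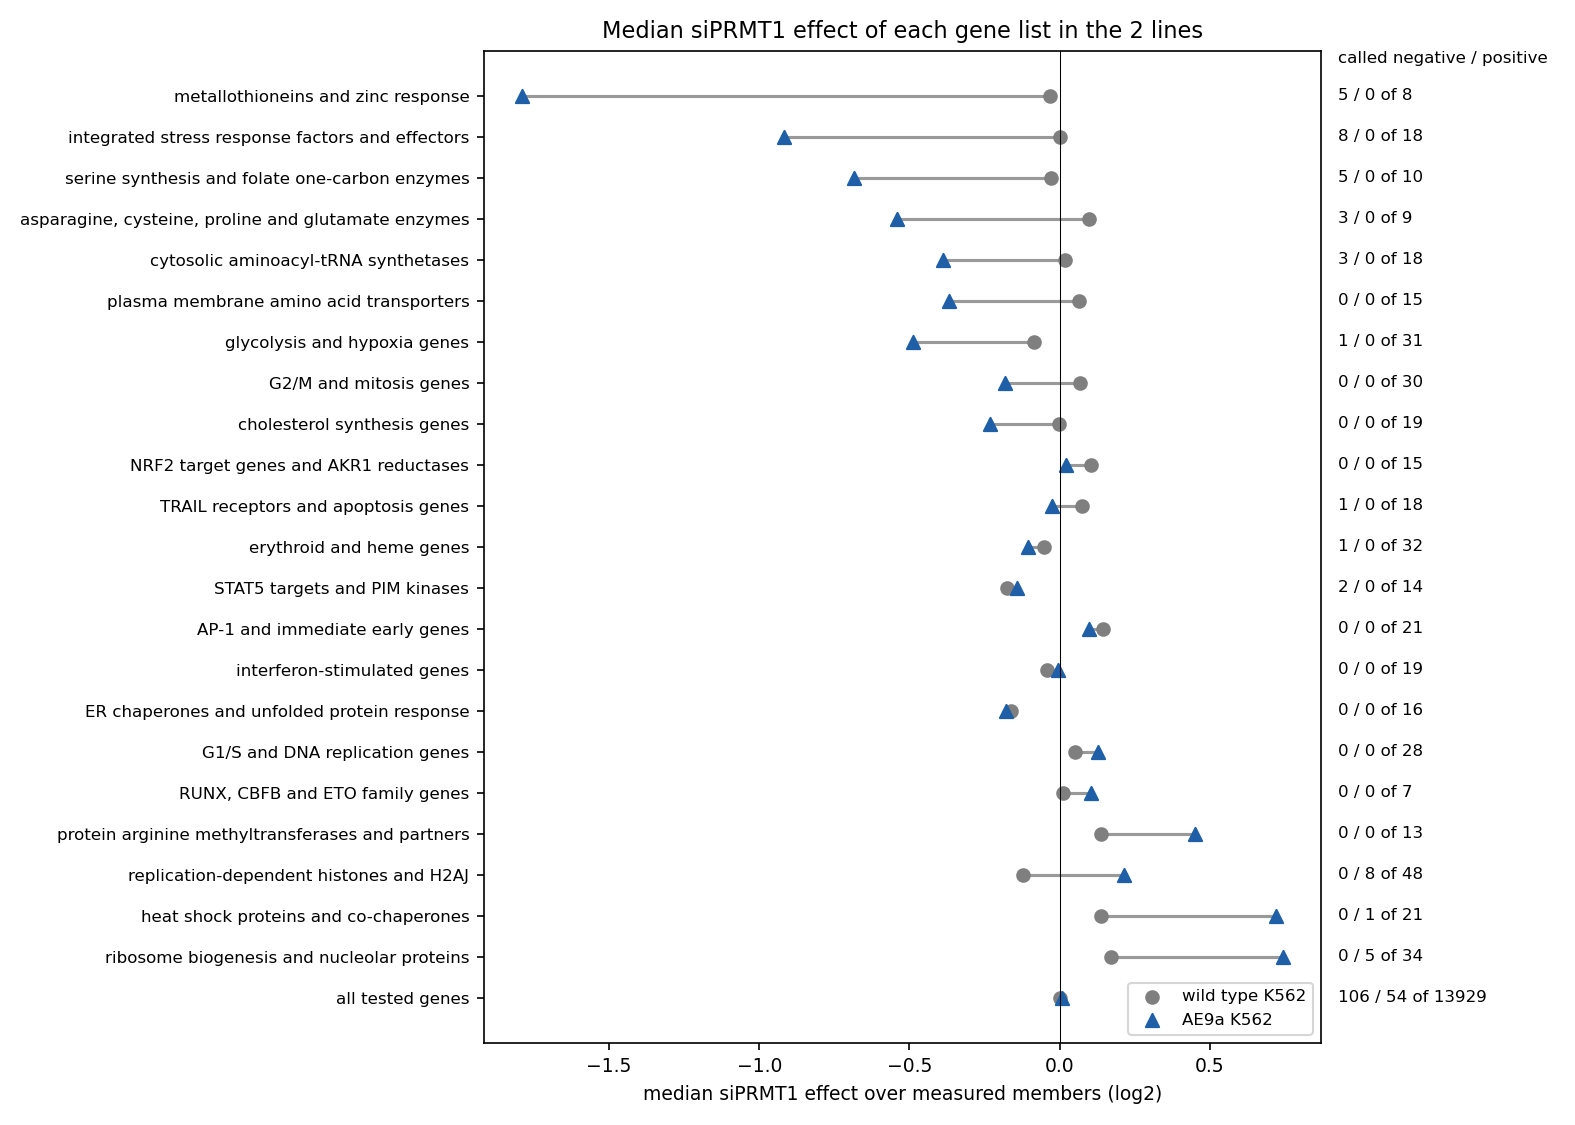
Median effect of siPRMT1 (log2) over the measured members of each gene list in wild type (circles) and AE9a cells (triangles), ordered by the median difference, with all tested genes at the bottom. Counts at the right are members called as more negative and more positive of those measured. Metallothioneins and stress response genes have the widest gaps below 0, and ribosome biogenesis and heat shock genes lie to the right in AE9a cells.

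A gene that did not pass is not shown to respond alike in the lines. The 95% interval of the difference had a median half-width of 0.357 log2 units over the tested genes. It lay within 1 log2 unit of 0 for 12580 genes (90.3%), so a difference of more than 2-fold was outside the interval for those.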

How the data were processed

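Illumina HT-12 bead arrays of 12 RNA samples were read in 4 groups of 3. The non-normalized table holds deposited intensity per probe, and the submitters' processed table, whose normalization is not stated, holds deposited intensity too and served as an alternative. GenomeStudio is named in the submitters' processing notes. Of 47231 probes, 30113 had 1 symbol in the platform annotation, 8 several and 17110 none.

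From the non-normalized intensities, normexp background correction (offset 50), quantile normalization and log2 were computed with limma 3.58.1 in R 4.3.3. Probes with a mean above the 40th percentile were kept (28338, 13929 genes), and on 3 or more arrays 76.5% of these were brighter than the olfactory receptor level. The quantile step assumes similar distributions in both lines. limma fitted the 4 group means with an intensity trend (13.8 degrees of freedom), tested the difference of effects two-sided, and adjusted over all tested probes (Benjamini-Hochberg, threshold 0.05). The number of arrays limits the precision. The fit was also tested on simulated data.

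A probe below the olfactory receptor level on all arrays of a group has no size given. Deviations of wild type control and siPRMT1 arrays with the same number correlated at 0.578, 0.283 and 0.536, and those with different numbers at -0.582 to 0.124. In AE9a cells the values for the same number were -0.203, -0.296 and 0.000655, and control 1 with siPRMT1 2 reached 0.356. With 3 arrays per group the deviations of a probe sum to 0, so these values are not independent. They led to the block in wild type arrays but do not establish that the arrays are pairs.

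The genes named were PRMT1, RUNX1, RUNX1T1, the 12 largest called differences in each direction, up to 4 called members of each list by adjusted p (2 where none was called) and up to 4 per pattern of effects. The 12 were taken among genes with an informative symbol and no group wholly below the olfactory receptor level. Other list members were chosen after their values were seen. Members and gene lists were chosen with earlier results of these data known. Alternatives changed the background correction, normalization, filter, array weights, trend, block, threshold and arrays. Promoters were searched with Python 3.11.15.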

Additional observations from a re-analysis of the deposited data

Results flagged for a closer look

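By the test of the difference itself, 260 probes responded to siPRMT1 differently in the lines, and some of the named genes among them are given by their difference (AE9a effect minus wild type effect, log2). In each called stress response and amino acid gene listed here the difference was negative: INHBE -3.08, DDIT4 -2.75, CTH -1.93, PHGDH -1.91, TRIB3 -1.83, PSAT1 -1.51, ASNS -1.48, PSPH -1.28, GDF15 -1.23, WARS1 -1.21, CEBPG -1.14, MTHFD2 -1.09, GARS1 -0.98, AARS1 -0.93 and CBS -0.77. The metallothioneins with a measurable size were MT2A at -2.40, MT1E at -2.03 and MT1F at -0.96. Other negative differences were those of BCL6 (-1.75), IDH1 (-1.74), ARG2 (-1.73), KLHL24 (-1.69), TM6SF1 (-1.61), TNFRSF10B (-1.52), PIM1 (-1.13), VEGFA (-1.05) and UROS (-0.93). Among histone genes the difference was 1.61 for H2AJ, 1.43 for H3C4, 1.37 for H2AC19, 1.32 for H2AC20, 1.14 for H2AC18 and 0.69 for H1-2. Nucleolar and chaperone genes had 1.24 (NOP16), 1.08 (GRWD1), 1.02 (CCDC86), 0.89 (RRP9), 0.88 (UTP15), 0.83 (HSPA4), 0.77 (UTP20) and 1.04 (DNLZ). Other positive differences were 1.27 for NEFH, 1.09 for RN7SK and 1.01 for DUSP23.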

How the results depend on the processing

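Of 260 called probes (85 more positive and 175 more negative in AE9a cells), the total was 455 with array weights, 473 without the intensity trend and 65 at an adjusted p under 0.01. With replicate number as a block it was 630 in both lines (257 of the 260 among them) and 1241 in the wild type arrays. The more positive count was 55 with normexp offset 16, 38 with median scaling, 139 when probes had to be brighter than the olfactory receptor level on 3 or more arrays, 164 with array weights, 188 without the trend, 240 and 509 with the block in both lines and in wild type arrays, and 10 at 0.01. The more negative count was 282 with median scaling, 291 with array weights, 285 without the trend, 390 and 732 with the 2 blocks, and 55 at 0.01. Leaving out 1 array gave 80 to 348 probes, 16 to 110 more positive and 64 to 238 more negative, and leaving out both wild type arrays numbered 3, chosen after the data were seen, gave 291. Of the 50 called genes picked by the rule for named genes, 25 passed without each array, 34 with each other setting at 0.05 that tested them and 24 with both. None of the 50 changed sign. Called genes given further as values, among them ATF3, DDIT3, CHAC1, SHMT2, H3C6, PCK2 and BCAT1, are not in these counts. Of the 50, 9 were not tested in every other setting because a stricter filter removed them. RUNX1, which was not called, ranged from -0.0177 (without AE9a siPRMT1 3) to 0.246 with 1 array left out, and was at -0.00685 without both wild type arrays numbered 3. The block in wild type arrays ended no named call. The cause of these shifts was not tested. Genes near the olfactory receptor level have little range below it.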

Other observations

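The genes below were chosen after their values were seen and are given as values. Called as more negative in AE9a cells and in none of the lists were PCK2, the mitochondrial enzyme that makes phosphoenolpyruvate (-1.41, adjusted p = 0.0376), the branched-chain transaminase BCAT1 (-1.08, adjusted p = 0.0396), the mitochondrial protease LONP1 (-0.82, adjusted p = 0.0345) and GFPT1, the first enzyme of hexosamine synthesis (-0.87, adjusted p = 0.034). PCK2 lost its call without any single AE9a array, wild type control 2, or wild type siPRMT1 2 or 3 (adjusted p up to 0.113). BCAT1 lost its call without any single AE9a array, wild type control 1 or 3, or wild type siPRMT1 2 or 3 (adjusted p up to 0.124). LONP1 lost its call without any single AE9a array, wild type control 1, or wild type siPRMT1 1 or 3 (adjusted p up to 0.114). GFPT1 lost its call without any single AE9a array, or wild type siPRMT1 2 or 3 (adjusted p up to 0.113).

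CCPG1, an ER-phagy receptor (-1.42, adjusted p = 0.000343), and the purinergic receptor P2RX1 (-1.36, adjusted p = 0.00862) were more negative and kept their calls without each array. RBL2, a pocket protein of the retinoblastoma family, was at -0.88 (adjusted p = 0.03). RBL2 lost its call without any single AE9a control, AE9a siPRMT1 1 or 3, or wild type siPRMT1 2 in turn (adjusted p up to 0.0944). TSC22D3, a glucocorticoid-induced leucine zipper protein (adjusted p = 0.0116), was more negative and the ligand WNT7A (adjusted p = 0.00481) more positive. Both kept their calls without each array, and both have no size given because at least 1 wild type group was below the olfactory receptor level.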
